A study of Rattus norvegicus with 4 samples.

Results

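AMPA receptors are the glutamate-gated ion channels that carry most of the fast excitatory transmission in the hippocampus. Each channel is assembled from pore-forming subunits encoded by Gria1, Gria2, Gria3 and Gria4, and auxiliary proteins of the TARP family (Cacng2, Cacng3 and Cacng8) and the cornichon family (Cnih2 and Cnih3) travel with the channel, help it reach the synapse and slow its closing. In hippocampal pyramidal neurons the number and the subunit make-up of these receptors change with synaptic plasticity. The 9 genes were chosen for these roles, and the platform annotation assigned 13 probe sets with a single gene symbol to 8 of them, of 31042 probe sets other than Affymetrix controls. Cnih3 had no probe set with its symbol in this annotation.

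The samples were hippocampi of male Wistar rats, 16 months old at dissection. Stressed rats had gone through a battery of changing mild stressors for 4 weeks, beginning at 15 months, and nonstressed controls of the same age were kept under standard housing. Each group had 2 arrays, and every array carried RNA pooled from 3 rats, and the design text names the arrays of a group biological replicates. Which rats went into which pool is not stated, so the p-values measure the spread between these pools, which may be technical in part. In whole hippocampus, fewer cells of a type and less RNA per cell cannot be told apart.

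Of the 13 probe sets, 11 (of 7 genes) reached a signal of 100 on 2 or more of the 4 arrays and entered the test, among 14791 such probe sets. The other 2, the only probe set of Cacng8 and the dimmest of Gria4, were dim on all arrays. Signals are given in the arbitrary units of the deposited table. A difference between groups is given as the log2 fold change of stressed rats relative to nonstressed controls, and a probe set was called at an adjusted p under 0.05 from limma over all tested probe sets. Probe sets of different genes bind with different strength, so their signals were not ranked against each other. Where a gene had several probe sets, they are called the brightest, the second and the third by their mean log2 signal.

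At that threshold 3 of the 11 tested probe sets were lower in stressed rats, those of Gria1, Gria2 (the brightest) and Gria3 (the second), and none was higher. Over all tested probe sets 11.8% were lower and 12% higher. All 3 that fell belong to pore-forming subunits, which have 7 of the 11 tested probe sets. None of the 4 tested probe sets of auxiliary proteins was called by limma, although 1 was higher and 2 were lower at unadjusted p under 0.05. Cacng8, an auxiliary protein with lower signals in stressed rats, was too dim to enter the test. At unadjusted p under 0.05 from limma, 5 of the 11 were lower and 2 higher, against 17.6% and 20.4% of all tested probe sets. With the test the methods name, on log2 signals, no member passed the adjusted threshold, which only 18 of all 14791 tested probe sets passed. By that test 1 member passed an unadjusted p under 0.05, as 24.6% of all tested probe sets did. The thresholds the methods state, a 2-fold change or more with unadjusted p under 0.05, here from limma, were reached by none of the 11, against 1.60% of all tested probe sets. The median log2 fold change of the 11 was -0.02, beside 0.02 over all tested probe sets. The groups did not overlap in 5 probe sets that were lower and 2 that were higher in stressed rats. Over all tested probe sets, 29.5% had such a separation downward and 34.9% upward.

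**Figure D1:**
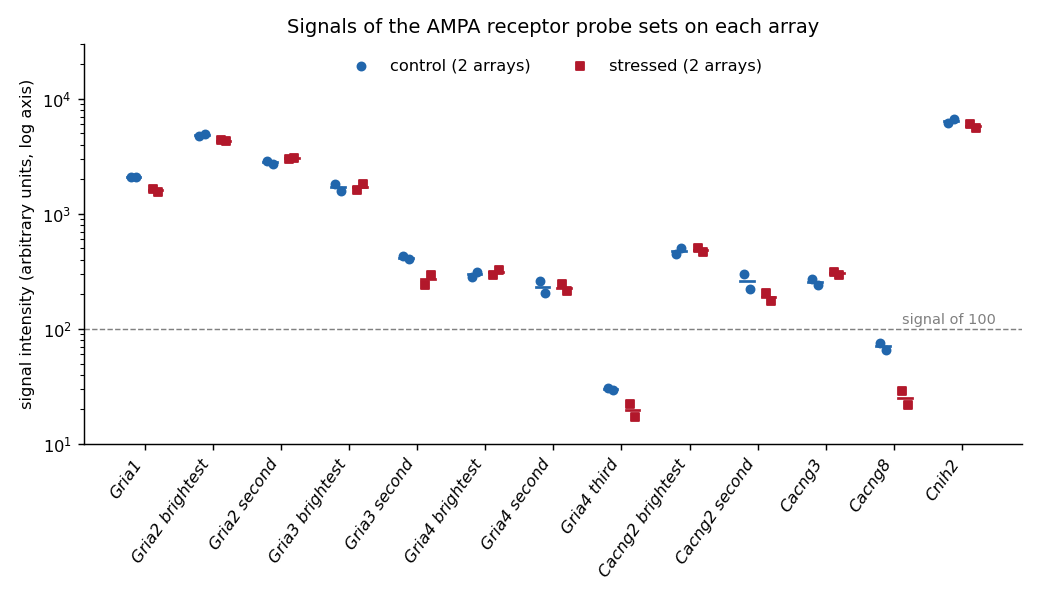
Signal intensity (log axis, arbitrary units) of the 13 AMPA receptor probe sets on each of the 2 control arrays (blue circles) and the 2 stressed arrays (red squares), with bars at the group means. The dashed line marks a signal of 100, below which Cacng8 and the third probe set of Gria4 lay on every array.

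Gria1 showed the clearest fall. It encodes GluA1, the subunit that is brought into synapses during long-term potentiation and is a substrate of the kinases CaMKII and PKA. Its only probe set (1371013_at) gave signals of 1650.5 and 1556.9 in stressed rats, and of 2100.8 and 2109.8 in nonstressed controls. Both stressed arrays thus lay under both control arrays. The mean signal fell by 23.8%, from 2105 ± 6.36 to 1604 ± 66.2 (SD, n = 2 arrays). The log2 fold change was -0.39 (standard error 0.05, limma's adjusted p = 0.00153), with a 95% interval from -0.51 to -0.28. Across 15 other settings of the analysis the log2 fold change stayed between -0.43 and -0.35. The call was kept in 13 of them, including every removal of an array, and was lost with the methods' test on log2 and on linear signals.

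Gria2 encodes GluA2, the subunit that makes the channel nearly impermeable to calcium once its transcript has been edited at the pore. Its 2 probe sets moved in different directions. The brightest (1368401_at) had signals of 4423.2 and 4260.9 in stressed rats and of 4772.1 and 4959.8 in nonstressed controls, without overlap. Its mean fell by 10.8%, and the log2 fold change was -0.16 (standard error 0.05, limma's adjusted p = 0.0368). This call was kept in 6 of 15 other settings. It was lost in each removal of an array (adjusted p 0.0788 to 0.187), without an intensity trend, with no filter on dim probe sets, with replicate numbers as a block, and with the methods' test on either scale.

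The second probe set of Gria2 (1387171_at) was at 3028.3 and 3066.5 in stressed rats and at 2877.7 and 2719.3 in nonstressed controls. Here both stressed arrays were the higher ones. Its log2 fold change was 0.12 (standard error 0.05, limma's adjusted p = 0.0947) and was not called. Whether both probe sets of a gene changed alike was tested on the difference of their log2 signals within each array, over the 2363 such pairs of all genes. For Gria2 the second minus the brightest was -0.55 and -0.47 in stressed rats and -0.73 and -0.87 in nonstressed controls. The log2 fold changes of both probe sets differed by 0.29 (standard error 0.07, limma's adjusted p = 0.0139). The same test called 27.0% of all pairs. For Gria2 the difference was called in 10 of 14 other settings and not without control replicate 2 (adjusted p = 0.0949).

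Gria3 encodes GluA3, which in the hippocampus is found mostly in receptors together with GluA2. Its second probe set (1368691_at) gave 241.8 and 296.4 in stressed rats and 428.6 and 404.4 in nonstressed controls. The stressed arrays lay well under the controls, and the mean fell by 35.4%, from 416.5 ± 17.1 to 269.1 ± 38.6 (SD, n = 2 arrays). On the log2 scale the difference was -0.64 (standard error 0.11, limma's adjusted p = 0.00631), the largest in size among the 11 tested probe sets. It was called in 12 of 15 other settings and missed the threshold without control replicate 1 (adjusted p = 0.0568) and with the methods' test on either scale.

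The brightest probe set of Gria3 (1376892_at) did not share this difference. Its signals were 1622.9 and 1820.2 in stressed rats and 1823.1 and 1573.1 in nonstressed controls, so the groups overlapped. Its log2 fold change was 0.02, with a 95% interval from -0.17 to 0.21 (limma's adjusted p = 0.871). Within each array the second probe set lay below the brightest by a log2 difference of -2.75 and -2.62 in stressed rats and of -2.09 and -1.96 in nonstressed controls. The log2 fold changes of both probe sets differed by -0.66 (standard error 0.10, limma's adjusted p = 0.00253). This inequality was called in 13 of 14 other settings, the exception being the methods' test on log2 signals (adjusted p = 0.127).

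**Figure D2:**
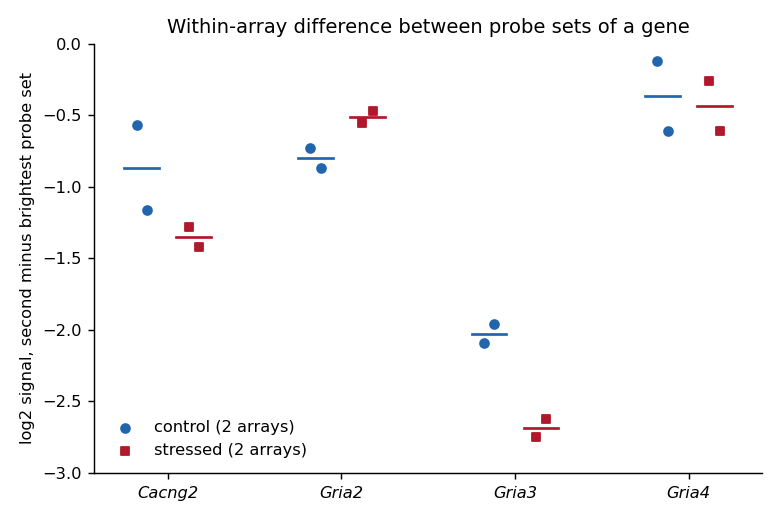
Difference in log2 signal between the second and the brightest tested probe set of Cacng2, Gria2, Gria3 and Gria4 on each control array (blue circles) and each stressed array (red squares), with bars at the group means. The arrays of both groups separate in opposite directions for Gria2 and Gria3, lie lower in stressed rats for Cacng2 and overlap for Gria4.

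Gria4 encodes GluA4, which in the mature hippocampus is characteristic of interneurons. Its brightest probe set (1383707_at) had signals of 294.2 and 325.2 in stressed rats and of 284 and 315.1 in nonstressed controls. Its second (1396696_at) had 245 and 213 in stressed rats and 260.6 and 205.8 in nonstressed controls. The groups overlapped at both. The log2 fold changes were 0.05 (95% interval -0.18 to 0.28) and -0.02 (95% interval -0.34 to 0.30), and neither was called. Differences inside these intervals could not be resolved with 2 arrays per group. The third probe set (1369384_at) was dim, at 22.3 and 17.1 in stressed rats and 30.8 and 29.6 in nonstressed controls. The log2 fold changes of the 2 tested probe sets differed by -0.07 (95% interval -0.54 to 0.41, limma's adjusted p = 0.844).

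Among the auxiliary proteins, Cacng2 encodes stargazin, the first TARP to be described, which binds the scaffold protein PSD-95 and holds the receptor at the synapse. The brightest probe set of Cacng2 (1368759_at) was at 500.5 and 463.1 in stressed rats and at 445 and 502.2 in nonstressed controls. These values overlapped, and the log2 fold change was 0.03 (95% interval -0.17 to 0.22). The second (1375735_at) was at 206 and 173.5 in stressed rats and at 300 and 224.2 in nonstressed controls. Both stressed arrays were lower, but the control arrays differed widely from each other. The log2 fold change was -0.46 (standard error 0.16, limma's adjusted p = 0.0732) and was not called, although it was with the replicate number as a block (adjusted p = 0.0362). It ranged from -0.67 to -0.25 across the other settings, the smallest in size being that without control replicate 1. The inequality between both probe sets, -0.48, was not called either (95% interval -0.94 to -0.02, limma's adjusted p = 0.114). It was called without control replicate 2 (-0.78, adjusted p = 0.0126) and without stressed replicate 1 (-0.55, adjusted p = 0.0135), and was -0.19 without control replicate 1.

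Cacng3 encodes the TARP gamma-3. Its probe set (1370757_at) had signals of 313.8 and 296.9 in stressed rats and of 269.5 and 242.9 in nonstressed controls. The stressed arrays were the higher ones, and the difference was 0.25 on the log2 scale (standard error 0.10, limma's adjusted p = 0.0962). It was not called in any of the 15 other settings. Its 95% interval, from 0.03 to 0.48, is not adjusted for the number of probe sets.

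Cacng8 encodes the TARP gamma-8, the most characteristic TARP of the hippocampus. Its only probe set (1388079_at) lay below a signal of 100 on all arrays, at 28.8 and 21.6 in stressed rats and at 75.3 and 65.8 in nonstressed controls. The stressed arrays were clearly lower, with a mean of 25.2 ± 5.09 against 70.6 ± 6.72 (SD, n = 2 arrays), but the probe set was outside the test by its dimness. When every probe set was tested, its log2 fold change was -1.50 (standard error 0.31, limma's adjusted p = 0.0285). It was the only member to reach 2-fold in any setting of the analysis.

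Cnih2 encodes cornichon-2, which escorts AMPA receptors out of the endoplasmic reticulum and slows their deactivation in pyramidal neurons. Its probe set (1373747_at) gave 5999 and 5570.6 in stressed rats and 6143.6 and 6647.5 in nonstressed controls. The stressed arrays were lower by a narrow margin. Its log2 fold change was -0.14 (standard error 0.06, limma's adjusted p = 0.108) and was not called. It was called after quantile normalization (adjusted p = 0.0186) and with a crossed pairing of the arrays (adjusted p = 0.00866). The removal of an array moved it to between -0.202 and -0.088, the smallest in size being without control replicate 2 and, at -0.091, without stressed replicate 2.

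**Figure D3:**
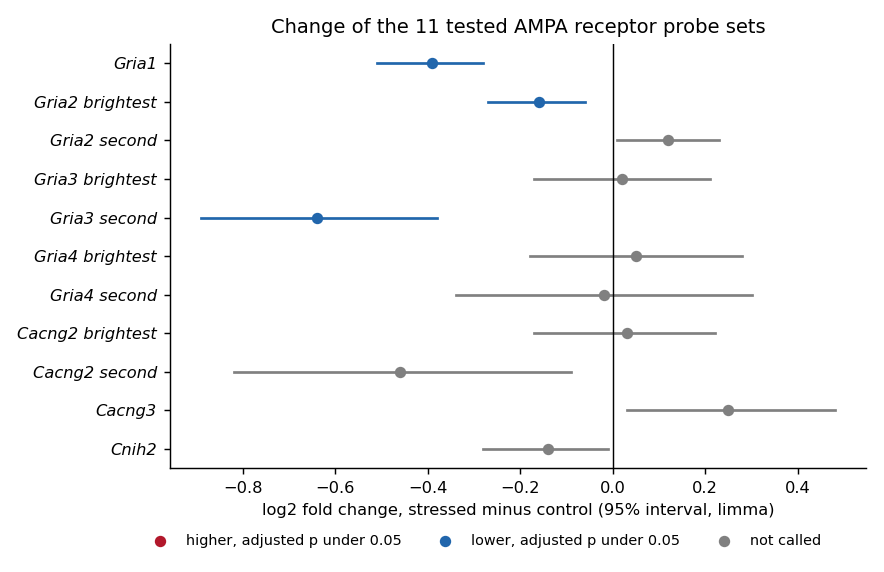
Log2 fold change of stressed rats relative to nonstressed controls for the 11 tested AMPA receptor probe sets, with 95% intervals from limma that are not adjusted for multiple tests. Probe sets lower at adjusted p under 0.05 are blue and the others grey. The 3 called ones, of Gria1, Gria2 and Gria3, lie at -0.39, -0.16 and -0.64, and the other probe sets of Gria2 and Gria3 lie at 0.12 and 0.02.

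Of the 4 AMPA receptor genes with more than 1 tested probe set, 2 had probe sets that changed unequally, in opposite directions of the second relative to the brightest. Over all genes 27.0% of such pairs changed unequally. Gria1, with 1 probe set, gives no such check. The positions of the probe sets along the transcripts were not analysed here. Affymetrix control probe sets at the 3' and 5' ends of reference transcripts gave a measure of transcript integrity on the same arrays. The 3' to 5' ratio of beta-actin was 7.82 and 7.66 in stressed rats and 6.67 and 6.20 in nonstressed controls. That of hexokinase was 4.48 and 5.29 in stressed rats and 2.55 and 2.50 in nonstressed controls, its 5' signals being dim. The ratio of Gapdh was 2.12 and 2.16 in stressed rats and 2.14 and 2.25 in nonstressed controls. The ratios were thus higher in stressed rats for 2 of the 3 transcripts, and their part in the unequal changes was not tested.

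**Figure D4:**
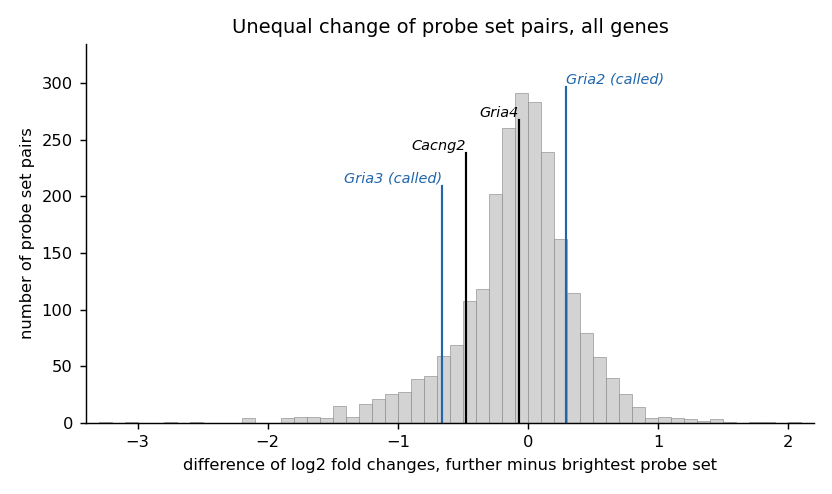
Histogram of the difference in log2 fold change between each further probe set and the brightest probe set of its gene, over 2363 pairs of all genes, with the 4 pairs of AMPA receptor genes as vertical lines (blue where called unequal, black otherwise; their heights have no meaning). Gria3 lies at -0.66, Cacng2 at -0.48, Gria4 at -0.07 and Gria2 at 0.29.

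The proteins that make, edit, anchor and move AMPA receptors were examined through 37 further genes, of which 33 had a probe set and 26 a tested one. Of their 39 tested probe sets, 10 were higher and 9 lower in stressed rats at adjusted p under 0.05, or 25.6% and 23.1%, against 12% and 11.8% over all tested probe sets. The called probe sets belonged to 16 genes, some counted more than once. The lists were chosen with earlier results of these data known, so these shares are no test of the lists. The median log2 fold change of the 39 was 0.02. The methods' test on log2 signals called none of the 39 at the adjusted threshold, and only 18 of all 14791 tested probe sets. Without an intensity trend 5 were higher, beside 1000 of all 14791 tested probe sets. Fewer than 10 were higher in each removal of an array, where fewer of all tested probe sets were higher too.

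Among other auxiliary and biogenesis proteins, 9 of 14 genes had a tested probe set. By limma 3 of their 10 tested probe sets were higher and none lower, against 12% and 11.8% of all tested probe sets. At unadjusted p under 0.05, 4 were higher and none lower, against 20.4% and 17.6%. The median log2 fold change of the 10 was 0.03, and 4 of them were negative. Shisa7, a membrane protein that associates with AMPA receptors, rose from 410.1 ± 3.75 to 566.8 ± 7.85 (log2 fold change 0.47, limma's adjusted p = 0.00278). Porcn, an acyltransferase of the endoplasmic reticulum that takes part in receptor assembly, rose by 0.39 on the log2 scale. Prrt1, also called SynDIG4, which keeps a reserve of receptors outside the synapse, rose by 0.26. The TARP genes Cacng4, Cacng5 and Cacng7 had only dim probe sets.

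Proteins that anchor and sort the receptors moved in both directions, with 5 of 25 tested probe sets higher and 8 lower. These are 20% and 32%, against 12% and 11.8% of all tested probe sets. Akap5, the anchor that brings PKA and calcineurin to GluA1, fell from 283.9 ± 9.83 to 74.9 ± 10.5 (SD, n = 2 arrays). The log2 fold change, -1.93 (limma's adjusted p = 0.000148), was the largest in size among the partners. Both stressed signals lay under 100, so the probe set entered the test through the control arrays alone. Epb41l1, whose product 4.1N links GluA1 to the actin cytoskeleton, fell by 0.54 at its second probe set, while the brightest, at 0.06, was not called. Dlg4, which encodes PSD-95, the scaffold that binds TARPs, fell by 1.13 at its second tested probe set and was not called at the brightest, at -0.04.

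The motor genes went opposite ways. Myo5a, a myosin that carries receptors into dendritic spines, fell by 0.81 on the log2 scale (limma's adjusted p = 9.87e-05). Myo6, a myosin that acts in their endocytosis, rose by 0.58 at its brightest probe set, and its second, at 0.24, was not called. Snx27, a sorting protein that returns receptors from endosomes to the membrane, had log2 fold changes of -0.91 and -1.18 at its second and dimmest probe sets, both called. Its other tested probe sets, with values chosen after they were seen, rose by 0.24 (the brightest, called) and stood at -0.29 (not called, limma's adjusted p = 0.129). Nptx1, a secreted pentraxin that clusters AMPA receptors, rose by 0.36 (limma's adjusted p = 0.00155). Arc, whose product promotes the removal of AMPA receptors from the membrane and whose values were chosen for mention after they were seen, fell by 0.27 (limma's adjusted p = 0.0209). Past the threshold were also Dlg3, a scaffold relative of PSD-95, and the brightest probe set of Nsf, an ATPase that binds GluA2, both higher, and Gripap1, an endosomal protein of receptor recycling, which was lower.

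The editing enzymes bear on Gria2, whose pore site is recoded by the enzyme that Adarb1 encodes. Adarb1, with values likewise chosen after they were seen, rose at its brightest probe set (1398370_at), from 2129.8 and 2171.5 in nonstressed controls to 2384.7 and 2470.7 in stressed rats. The log2 difference was 0.17 (limma's adjusted p = 0.0279). At its second probe set (1368933_at) it fell from 537.5 and 527.1 to 431.8 and 409.7, by -0.34 on the log2 scale (limma's adjusted p = 0.0119). The changes of both probe sets were unequal (difference -0.51, limma's adjusted p = 0.00425). Adar, the other editing enzyme, rose by 0.31 at its brightest probe set. Editing itself cannot be read from these signals. Of the 13 pairs of tested probe sets within partner genes, 7 changed unequally, in the 5 genes Adarb1, Dlg4, Epb41l1, Nsf and Snx27, against 27.0% of all pairs. The further probe set moved down relative to the brightest in each of the 7, of which 3 are pairs of Snx27 with the same brightest probe set, and it did so in 421 of the 637 unequal pairs of all genes.

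**Figure D5:**
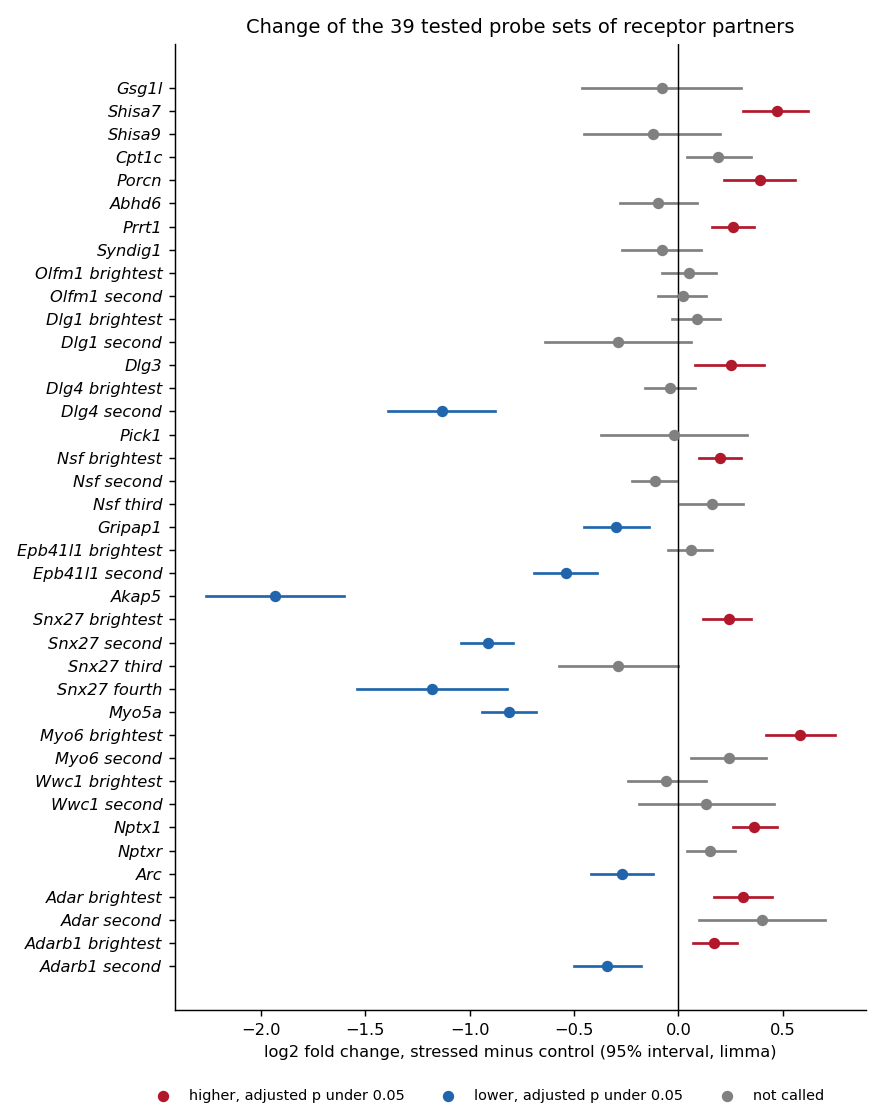
Log2 fold change of stressed rats relative to nonstressed controls for the 39 tested probe sets of AMPA receptor partners, with 95% intervals from limma that are not adjusted for multiple tests (red higher, blue lower at adjusted p under 0.05, grey not called). The order follows the auxiliary and biogenesis proteins, the anchoring and sorting proteins and the editing enzymes. Akap5 lies lowest at -1.93 and Myo6 highest at 0.58.

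The tissue label and the mix of cells were examined with marker genes. All 8 markers of excitatory hippocampal neurons had a tested probe set, among them Prox1 of the dentate gyrus and Fibcd1 of CA1, while 6 of 7 striatal probe sets were dim. Over all tested probe sets 12% were higher and 11.8% lower at adjusted p under 0.05, and 20.4% and 17.6% at unadjusted p under 0.05, by limma. Of the 10 tested excitatory neuron probe sets 2 were higher and 2 lower. Summed signals are given over all probe sets of a marker list, dim ones included, so the brightest weigh most. For the 13 of excitatory neurons the sum was 16829.9 to 17013.7 in stressed rats and 17292.6 to 17432.2 in nonstressed controls. Nrgn, the brightest of them, was at 5285.9 and 5164 in stressed rats and at 5862.8 and 6019.1 in nonstressed controls. It was called lower, and it differed between the groups by more than the sum did. Neurod2 was also called lower (log2 fold change -0.79), while both probe sets called higher were of Camk2a (0.18 and 0.55). Of the 10 tested excitatory neuron probe sets, 4 had a negative and 6 a positive log2 fold change. Of 9 tested interneuron probe sets 3 were lower and none higher by limma, nor was any higher at unadjusted p under 0.05. The sum over all 10 interneuron probe sets was 8579.9 to 8836.8 in stressed rats and 9491.6 to 9644 in nonstressed controls. Of 6 tested choroid plexus probe sets 4 were higher and none lower by limma (none at unadjusted p under 0.05 either), and the probe sets of Kl and Kcnj13 were dim on all arrays. Among the 4, Cldn2 lay at 78.8 and 96.5 in nonstressed controls, so it entered the test through the stressed arrays alone. The sum over all 9 choroid plexus probe sets was 17777.9 to 18936 in stressed rats and 13844.1 to 15690.9 in nonstressed controls. Most of it was Ttr, at 12992.4 and 11938.5 in stressed rats and 9449.9 and 11337.7 in nonstressed controls, which was not called. The summed astrocyte signal was 38495.9 to 38866.4 against 35488.9 to 35868.5, with 1 of 12 tested probe sets higher and 3 lower, and the summed microglial signal 3220.6 to 3325.2 against 3642.1 to 3711.6, with 1 of 6 tested ones higher and 3 lower. The summed signal of oligodendrocyte lineage markers overlapped between the groups, at 40014.2 to 40960.4 and 39781.3 to 42063.8, with 3 of 14 tested ones higher and 3 lower. Cspg4, among those higher, lay at 73.7 and 90.4 in nonstressed controls, so it too entered the test through the stressed arrays alone. Of 9 thalamic probe sets 5 were dim, and all 4 thalamic genes on the array had a tested one. Of the 4 tested 1 was lower. The part of these differences in the falls of Gria1, Gria2 and Gria3 was not tested.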

How the data were processed

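The authors hybridized hippocampal RNA to the Affymetrix GeneChip Rat Genome 230 2.0 Array and deposited linear signal intensities, which their methods credit to GCOS 1.4 with a target value of 300. Median signals were 79.6 to 82.3 per array, and the number of arrays limits the precision. The genome build is not given in the sources used here, and no coordinates were used. Signals were taken to log2, zeros being set to 0.1, without further normalization. Groups were tested in R 4.3.3 with the package limma 3.58.1 (intensity trend, 7.73 degrees of freedom) over 14791 probe sets reaching a signal of 100 on 2 arrays, Affymetrix controls excepted, with Benjamini-Hochberg adjustment. With 2 arrays against 2, exact permutation cannot reach a two-sided p under 0.333. Pairs of probe sets of 1 gene were fitted alike on their within-array differences. The fit was also run on simulated data in which the arrays varied independently. That run cannot show what deviations shared by the arrays of a group do to the calls.

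The members, the gene lists and the tests were chosen with earlier results of these data known. All members are named, and partner genes past the threshold with values for the 12 probe sets of smallest p. Further values of named genes were added after they were seen. Alternatives were quantile normalization, median centring, other filters on dim probe sets, an offset of 50, no intensity trend, the unpaired two-tailed test of the methods, the replicate number as a block and the removal of each array. A crossed pairing was added after seeing the data. Same-numbered arrays did not deviate together (r = -0.11 across probe sets, which are not independent).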

Additional observations from a re-analysis of the deposited data

How the results depend on the processing

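Of 165 member log2 fold changes recomputed in 15 other settings, 139 kept direction and call, 14 lost the call, 4 gained it and 8 changed sign. All 8 sign changes were at probe sets that were not called, in removals of an array. There the brightest of Gria3 ranged from -0.085 to 0.128, the tested ones of Gria4 from -0.027 to 0.123 and from -0.190 to 0.151, and the brightest of Cacng2 from -0.061 to 0.114. The members called lower numbered 3 by limma, 0 with the methods' test on log2 or linear signals, and 1 to 2 when an array was left out, the lowest being without control replicate 1, where Gria1 remained. Over all 14791 tested probe sets, the methods' test called 4 higher and 14 lower on log2 signals, and 4 and 12 on linear signals. No member was called higher except 1, the second probe set of Gria2, with a crossed pairing. With no filter on dim probe sets 1 member, Cacng8, reached 2-fold at unadjusted p under 0.05. Pairs with unequal change numbered 2, but 1 with no filter, 1 without an intensity trend 0 with the methods' test on log2 signals and 3 without stressed replicate 1, where Cacng2 was added; the test on linear signals was not run for pairs. Partner probe sets numbered 10 higher and 9 lower, but 5 higher without an intensity trend, 0 and 0 with the methods' test on log2 or linear signals, and 5 to 7 higher in the removals of an array (5 without control replicate 2, 6 without stressed replicate 2). With the replicate block 3 members were lower, Gria1, the second of Gria3 and the second of Cacng2, and 7 partner probe sets were higher and 9 lower. With the crossed pairing 4 members were lower, and 12 partner probe sets higher and 9 lower. Calls over all tested probe sets shifted too, from 1771 higher and 1744 lower by limma. They numbered 1000 and 1147 without an intensity trend, and 1281 and 1391 with the replicate block. With the crossed pairing they were 2069 and 1970, and with no filter 1223 and 1341 of 31042. Both counts were also smaller in each removal of an array. The cause of these shifts was not tested. A removal leaves 1 array in a group, assumed to vary like the others.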
